A study of Vitis vinifera with 24 samples.

Results

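The SEPALLATA genes of grapevine (Vitis vinifera) were followed through somatic embryogenesis, in which cultured tissue other than the zygote gives rise to embryos. The members were taken by locus identifier: VIT_14s0083g01050 (SEP1), VIT_17s0000g05000 (SEP2), VIT_01s0010g03900 (SEP3) and VIT_01s0011g00110 (SEP4), 4 of the 29971 loci in the expression table. RNA came from 24 libraries in 8 groups of 3, from the cultivars Sangiovese (SG, labelled highly competent for embryogenesis) and Cabernet Sauvignon (CS, labelled poorly competent). For each cultivar the groups were anthers from immature flowers, undifferentiated callus at day 40 of culture (40D), embryogenic callus (EC) and non-embryogenic callus (NEC). All callus was grown from anthers at 26 °C in darkness, on induction medium with 4.5 µM of the auxin 2,4-D and 8.9 µM of the cytokinin BAP. Before the month 4 sorting into EC and NEC under a stereomicroscope, calli had been moved to a medium with the auxins NOA and IAA, BAP and charcoal. A callus is a mixed tissue that was classed by eye. The p-values set each difference against the spread between libraries of the same group, pooled over all 8 groups. The labels state that replicates are biological without saying whether they came from separate plants or dishes, so that spread cannot be tied to either.

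SEPALLATA proteins are the E-class members of the MADS-box family of transcription factors. They join with A-, B-, C- and D-class MADS-box proteins in complexes that specify the organs of the flower, and in Arabidopsis the loss of all SEPALLATA genes turns floral organs into leaf-like ones. In Arabidopsis SEP1, SEP2 and SEP3 overlap in function, SEP3 joins the B-class with the C-class proteins, and SEP4 also acts outside the flower. Anthers are floral organs, so transcripts of these genes are usual there, while callus is not a flower.

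The loci carry names through the identifiers above and not through the expression table itself. In the RefSeq gene table (assembly ASM3070453v1) 2 of the 4 names were found as synonyms, SEP1 for the gene MADS2 on chromosome 14 and SEP3 for the gene MADS4 on chromosome 1, the same chromosomes as in their locus numbers. By locus number SEP2 lies on chromosome 17 and SEP4 on chromosome 1. The values are FPKM, fragments scaled by transcript length and by the mapped fragments of the library, so levels of different loci can be set side by side. The libraries are non-directional, so transcripts of either strand were counted together.

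Summed FPKM per library ran from 729402 to 938765, and relative depth, estimated from the smallest values, from 0.903 to 1.5 times that of the first CS anther library. How many reads lie behind each library is unknown. The 40D libraries differed little, with a median coefficient of variation of 2.91% in SG and 3.44% in CS over loci with a group mean of at least 10 FPKM, against 4.06% to 9.85% in the other groups. In anthers and EC, replicate 3 lay between replicates 1 and 2 at 58.9% to 68% of loci, against 34.9% to 41.6% in the other groups; whether those libraries are independent was not tested. No marker list could be matched to the locus identifiers, so the tissue labels were not checked against markers.

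SEP3 was the most abundant SEPALLATA transcript in anthers, 40D callus and NEC, SEP1 came after it, and SEP2 and SEP4 were minor. The summed level of the members was 398 ± 85.1 FPKM in SG and 323 ± 0.795 in CS anthers (SD, n = 3, as for all values with ±), and 367 ± 2.98 in SG and 414 ± 7.09 in CS 40D callus. At month 4 it was 63.2 ± 2.95 FPKM in SG EC and 277 ± 18.9 in SG NEC. In CS it was 3.78 ± 0.995 FPKM in EC and 286 ± 26.4 in NEC. EC therefore held the lowest sums in either cultivar, and the SG EC sum lay far above the CS EC sum. In a bulk sample, fewer cells that hold a transcript and less transcript per cell cannot be told apart.

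The make-up of that sum also differed in SG EC. SEP1 made up 87.9% ± 12.8 of it there, with libraries between 74.2% and 99.5%, against 18.7% ± 1.5 in SG NEC. In CS the SEP1 share was 29.4% ± 12.4 in EC and 7.77% ± 1.44 in NEC. SEP3 made up 11.9% ± 12.5 of the sum in SG EC, against 81% ± 1.54 in SG NEC, and 67% ± 10.6 in CS EC, against 90.9% ± 1.5 in CS NEC. The CS EC shares rest on a sum of under 5 FPKM in each library.

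**Figure D1:**
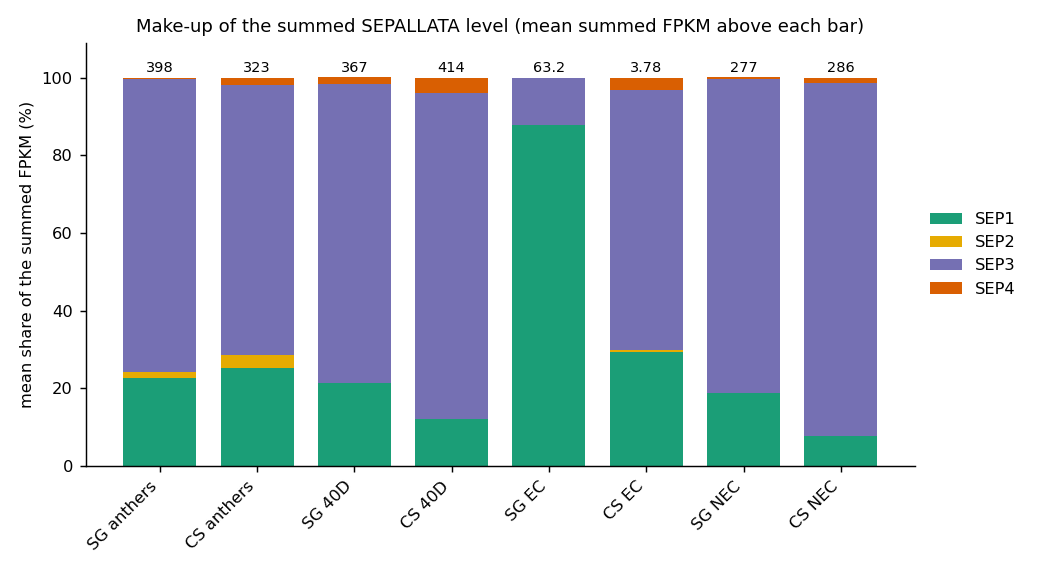
Mean share of each SEPALLATA locus in the summed FPKM of the members (vertical axis, %), for each group of 3 libraries, with the mean summed FPKM above each bar. SEP3 fills most of each bar other than SG EC, where SEP1 holds 87.9%.

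SEP3, the bridging member of the family, had 16.8, 0.296 and 6.07 FPKM in the SG EC libraries, against 217, 247 and 210 in SG NEC. In CS EC it had 2.65, 2.09 and 2.65 FPKM, against 248, 283 and 248 in CS NEC. Neither cultivar had any overlap between EC and NEC, and the SG EC libraries stood far apart from one another while the CS EC libraries lay close together. In the earlier tissues SEP3 had 388, 204 and 320 FPKM in SG anthers and 218, 231 and 224 in CS anthers, and in 40D callus 281, 280 and 285 in SG and 343, 354 and 346 in CS. In anthers, 40D and NEC its group mean exceeded those of at least 98.2% of all loci, against 59% in SG EC and 44.7% in CS EC. From high to low the means ran CS 40D, SG anthers, SG 40D, CS NEC, SG NEC, CS anthers, SG EC and CS EC. The libraries of neighbouring groups in that order overlapped, except between CS NEC and SG NEC and between CS anthers and SG EC, a 29-fold gap.

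SEP1 behaved differently in the 2 cultivars. It had 49.4, 61.1 and 55.5 FPKM in the SG EC libraries, against 51.9, 50.8 and 52.3 in SG NEC, and those groups overlapped. In CS EC it had 1.71, 0.4 and 1.46 FPKM, against 16.6, 28.5 and 22.2 in CS NEC, with no overlap. Each SG EC library was thus above each CS library of month 4. SEP1 had 81.2, 91.4 and 86.1 FPKM in SG anthers and 86.8, 76.2 and 81.2 in CS anthers, where the cultivars overlapped. In 40D callus it had 78.2, 77.7 and 78.1 FPKM in SG and 49.8, 51.3 and 49.5 in CS, and the cultivars did not overlap there. The SG minus CS difference in 40D against anthers was not called (0.54, limma adjusted p = 0.087). The order of the means was SG anthers, CS anthers, SG 40D, SG EC, SG NEC, CS 40D, CS NEC and CS EC. Neighbours overlapped except between SG 40D and SG EC, CS 40D and CS NEC, and CS NEC and CS EC.

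SEP4 was a low transcript that peaked in 40D callus, in CS above SG. It had 5.9, 6.39 and 6.57 FPKM in SG 40D and 15, 16.2 and 16.5 in CS 40D, after 0.796, 1.97 and 1.3 in SG anthers and 7.38, 5.2 and 6.6 in CS anthers. SG EC had 0.302, 0 and 0.0675 FPKM, against 1.08, 0.937 and 0.958 in SG NEC. CS EC had 0.0964, 0.118 and 0.128 FPKM, against 3.7, 4.95 and 2.73 in CS NEC. The EC libraries were the lowest of each cultivar and the cultivars overlapped there. The order was CS 40D, CS anthers, SG 40D, CS NEC, SG anthers, SG NEC, SG EC and CS EC, and overlaps occurred between CS anthers and SG 40D, SG anthers and SG NEC, and the EC groups.

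SEP2 was an anther transcript. It had 3.82, 8.28 and 6.15 FPKM in SG anthers and 11.1, 10.2 and 10.1 in CS anthers, with no overlap. In 40D callus it had 0.238, 0.163 and 0.0397 FPKM in SG and 0.241, 0.622 and 0.353 in CS. It was listed at 0 in 10 of the 12 libraries of month 4, and the others were SG EC replicate 1 with 0.0351 FPKM and CS EC replicate 2 with 0.0309. An exact 0 in such a table can be a failed estimate, and 130 loci had a 0 beside a library of the same group with at least 10 FPKM. SEP1 and SEP3 were at 0 in 0 libraries and SEP4 in 1.

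The SG anther libraries differed among themselves. Replicate 1 had the highest SEP3 and the lowest SEP1, SEP2 and SEP4, replicate 2 the reverse, and replicate 3 lay between them for each of the members. In SG anthers replicate 3 lay between the other replicates at 68% of all tested loci, so its middle place is not particular to the members.

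**Figure D2:**
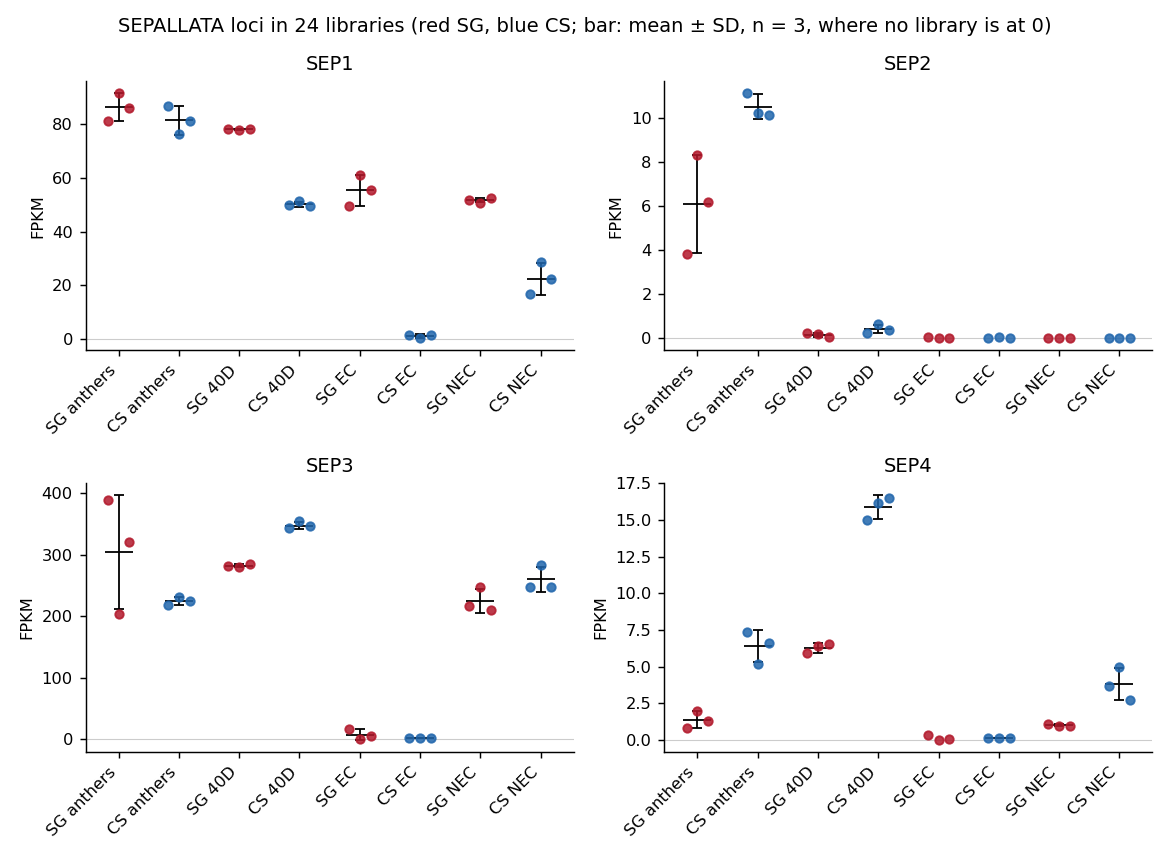
FPKM (vertical axis, linear) of each SEPALLATA locus in each library (points; red SG, blue CS) by group (horizontal axis), with the mean ± SD of 3 libraries where none is at 0. SEP3 falls to between 0.296 and 16.8 FPKM in EC of either cultivar, while SEP1 stays between 49.4 and 61.1 FPKM in SG EC and is at most 1.71 in CS EC.

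Embryogenic and non-embryogenic callus are the tissues that the study set against each other. Differences were tested with limma on log2(FPKM + 1), a scale that understates changes of low loci, and an adjusted p (Benjamini-Hochberg) under 0.05 over all 21568 tested loci is called. In SG 2 of the members were lower in EC, 0 were higher and 2 were not called, where 78.3% of all loci were called. In CS 3 were lower, 0 were higher and 1 was not called, where 79.4% were called. Being called is therefore common in these comparisons and sets no member apart. By direction, 6937 of all tested loci were lower and 9948 higher in SG, and 6028 were lower and 11091 higher in CS. The sizes are what follows.

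SEP3 fell by 5.36 on the log2 scale in SG (SE 0.53, limma adjusted p = 2.1e-08), with its mean at 3.44% of the NEC level. In CS SEP3 fell by 6.24 (SE 0.53, limma adjusted p = 2.2e-09), to 0.948% of NEC. The median change of all loci was 0.15 in SG and 0.31 in CS, and relative to it the falls are larger by these amounts. The difference between the cultivars, SG minus CS, was 0.87 for SEP3, with a 95% interval from -0.71 to 2.46 (limma adjusted p = 0.36). Leaving out SG EC replicate 2, at 0.296 FPKM, made that difference 1.91 (limma adjusted p = 0.00031), so this library decides the call. Without it SEP3 in SG fell by 4.33 (limma adjusted p = 4.2e-11), and without SG EC replicate 1, at 16.8 FPKM, it fell by 6.22 (limma adjusted p = 1.1e-10).

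SEP1 did not differ detectably between EC and NEC in SG, with 0.09 on the log2 scale and a 95% interval from -0.29 to 0.47 (limma adjusted p = 0.66), and with -0.11 under median-of-ratios scaling. In CS SEP1 fell by 3.44 (SE 0.18, limma adjusted p = 1.5e-12), an 18.8-fold lower mean. The SG minus CS difference of 3.54 (SE 0.26, 95% interval 3 to 4.07) had a limma adjusted p of 4.1e-09. For such tests of a difference between cultivars, 47% of all loci were called, and of the members 2 were higher, 0 lower and 2 not called.

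SEP4 was the other member called. It fell by 0.83 in SG (SE 0.17, limma adjusted p = 0.00014) and fell by 2.08 in CS (SE 0.17, limma adjusted p = 7.6e-10), and the SG minus CS difference was 1.24 (SE 0.23, limma adjusted p = 0.00028). SG EC replicate 2 is listed at 0 for it, and its mean in CS EC was 3.01% of that in NEC. These sizes depend on the constant added before taking logs: with 0.1 in place of 1, SEP4 fell by 2.53 in SG and fell by 4.15 in CS, and the called falls of SEP2 and SEP4 in EC against 40D and against anthers also grew. SEP2 was at or near 0 in both callus types, and neither comparison called it.

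Signal of NEC loci differed in the same order as SEP3 among the SG EC libraries, but not among the CS EC libraries. In SG EC replicate 3 lay between the other replicates at 60.8% of all tested loci, so its middle place is common there. The 200 loci that fell most from NEC to EC in CS were taken among tested loci averaging at least 20 FPKM in CS NEC. They leave out all MADS-box loci named here. Over these abundant loci, the summed FPKM of the SG EC libraries was 6.39%, 1.26% and 3.14% of the SG NEC mean. SEP3 stood at 7.49%, 0.132% and 2.7% of its own SG NEC mean in the same libraries, SEP4 at 30.5%, 0% and 6.82%, and SEP1 at 95.7%, 118% and 107%. In SG EC SEP1 was thus lowest in the library with the most of that signal and highest in the one with the least. The same held in CS EC, where SEP1 was nearly lost. There the signal was 1.02%, 1.28% and 1.19% of the CS NEC mean, and SEP1 stood at 7.64%, 1.79% and 6.51% of its own. SEP3 stood at 1.02%, 0.804% and 1.02% in those libraries, lowest where the signal was highest, and SEP4 at 2.54%, 3.1% and 3.38%. The part of NEC tissue or transcripts in the SEP1, SEP3 and SEP4 values was not tested. Without SG EC replicate 1 and SG NEC replicate 2, the SG libraries with the highest sums of loci typical of the opposite callus, SEP3 fell by 6.15 in SG and SEP1 differed by 0.16.

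**Figure D3:**
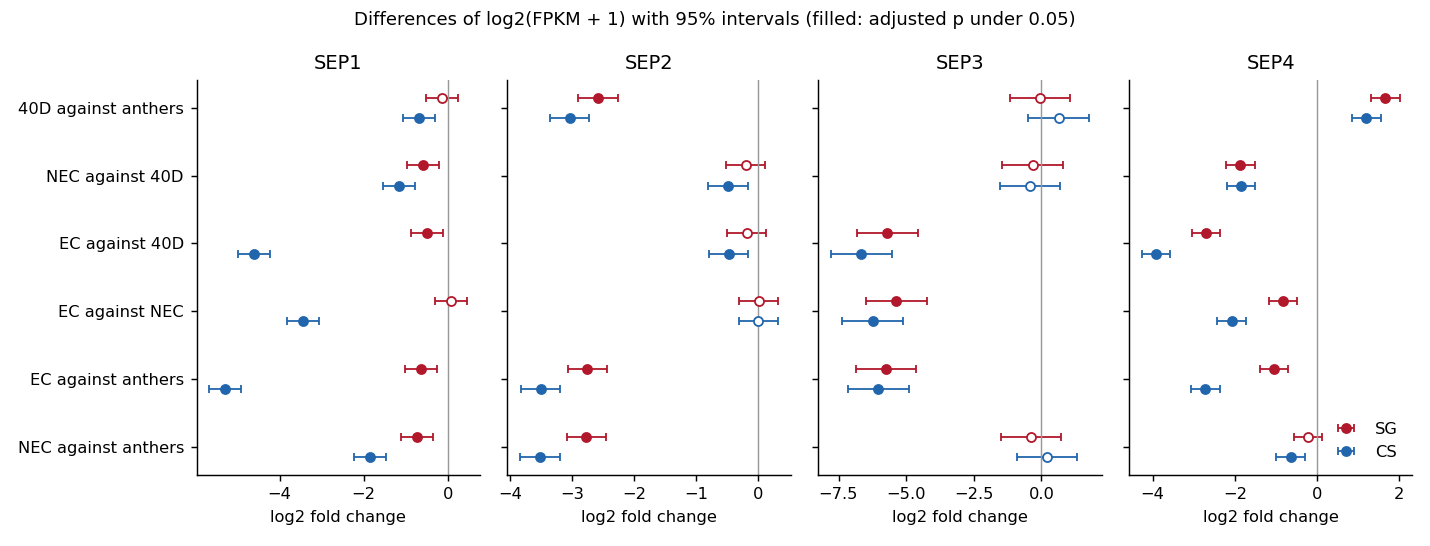
Log2 fold changes from limma on log2(FPKM + 1) (horizontal axis) with 95% intervals, for SEP1, SEP2, SEP3 and SEP4 and each pair of tissues within a cultivar (red SG, blue CS). Filled points have an adjusted p under 0.05. SEP1 in EC against NEC lies at 0.09 in SG and at -3.44 in CS, while SEP3 lies below -5 in both.

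Callus formation was the comparison of 40D callus with anthers. SEP2 fell by 2.58 in SG and fell by 3.04 in CS (SE 0.15 each, limma adjusted p = 8.6e-12 and 5.6e-13), leaving 2.41% of the anther mean in SG and 3.86% in CS. SEP4 rose by 1.66 in SG and rose by 1.20 in CS (SE 0.17 each, limma adjusted p = 2.5e-08 and 1.8e-06), a mean 4.63 times the anther mean in SG and 2.49 times in CS. SEP1 fell by 0.68 in CS (limma adjusted p = 0.002) and differed by -0.14 in SG (95% interval -0.52 to 0.24), where the libraries did not overlap. With equal library sums that SG value was -0.43 (limma adjusted p = 0.039). SEP3 was not called in either cultivar. Of the members, 1 was higher and 1 lower in SG, where 76.7% of all loci were called, and 1 was higher and 2 lower in CS, where 78.6% were called.

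Between cultivars, 0 members had a called difference in callus formation, where 49.5% of all loci were called. The SG minus CS difference was 0.54 for SEP1, 0.46 for SEP2, -0.69 for SEP3 and 0.45 for SEP4, with limma adjusted p of 0.087, 0.084, 0.48 and 0.12. Without SG anther replicate 2 the differences of SEP2 and SEP4 became 0.68 and 0.64 (limma adjusted p = 0.0028 and 0.021), and without CS 40D replicate 2 that of SEP2 became 0.57 (adjusted p = 0.044). The fit pools the spread of all 8 groups, SG EC included. When the fit held only the compared groups, SEP3 rose by 0.63 in CS 40D (SE 0.03, limma adjusted p = 1.2e-05), and the SG minus CS differences of SEP1 and SEP3 were called, with limma adjusted p of 0.00023 and 0.041.

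From day 40 to EC, SEP3 and SEP4 fell in both cultivars and SEP1 fell mainly in CS. SEP3 fell by 5.70 in SG and fell by 6.66 in CS (SE 0.53 each, limma adjusted p = 9.8e-09 and 9e-10). The SG change was -4.66 without SG EC replicate 2 and -6.55 without SG EC replicate 1. SEP4 fell by 2.71 in SG and fell by 3.92 in CS (SE 0.17 each, limma adjusted p = 2.1e-11 and 8.3e-14), with an SG minus CS difference of 1.22 (limma adjusted p = 0.00027). SEP1 fell by 0.49 in SG (SE 0.18, limma adjusted p = 0.019) and fell by 4.60 in CS (SE 0.18, limma adjusted p = 2.9e-14), and the SG minus CS difference was 4.11 (SE 0.26, limma adjusted p = 3.2e-10). In all, 3 members were lower and 0 higher in SG, where 77.1% of loci were called, and 4 lower and 0 higher in CS, where 78.4% were called. Among all tested loci 6402 were lower and 10231 higher in SG, and 5713 were lower and 11207 higher in CS. The SG minus CS test called 2 members, both higher, and 51.9% of all loci.

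The small SEP1 fall in SG EC was not firm. It lost its call without SG EC replicate 1 (-0.42, limma adjusted p = 0.073), without replicates 3 of anthers and EC (-0.50, adjusted p = 0.054), with 0.1 added before taking logs (-0.50, adjusted p = 0.14), with equal library sums (-0.26, adjusted p = 0.2) and with each 40D group taken as 1 sample (-0.49, adjusted p = 0.15), and was -0.76 with median-of-ratios scaling. The SEP2 fall in CS EC, 0.47 on the log2 scale, was lost without CS 40D replicate 2 (-0.36, limma adjusted p = 0.056), and without SG EC replicate 2 the SG minus CS difference of SEP3 was 2.00 (limma adjusted p = 0.00015) against 0.96 with all libraries. With 0.1 added before taking logs, the SEP4 difference between cultivars was 1.15 (limma adjusted p = 0.068), while SEP2 in SG EC against 40D was called at -1.07 (adjusted p = 0.0046). With each 40D group as 1 sample the SEP2 fall in CS EC had a limma adjusted p of 0.071.

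From day 40 to NEC, SEP4 and SEP1 fell in both cultivars. SEP4 fell by 1.87 in SG and fell by 1.84 in CS (SE 0.17 each, limma adjusted p = 4.2e-08 and 1.3e-08), and the SG minus CS difference had an interval from -0.52 to 0.46. SEP1 fell by 0.59 in SG and fell by 1.16 in CS (SE 0.18 each, limma adjusted p = 0.012 and 1.6e-05). SEP3 differed by -0.33 in SG and -0.42 in CS, not called in the pooled fit and called with the compared groups alone (limma adjusted p = 0.0069 and 0.0021). SEP2 was called lower in CS NEC (limma adjusted p = 0.0095), where it is listed at 0, a call lost without CS 40D replicate 2 (adjusted p = 0.06).

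In this comparison 2 members were lower and 0 higher in SG, where 47.5% of all loci were called, and 3 were lower and 0 higher in CS, where 63.2% were called. Of the SG minus CS differences 0 were called among the members and 42.5% among all loci. Without CS NEC replicate 2 the difference of SEP1 was 0.76 (limma adjusted p = 0.021), against 0.57 with all libraries (adjusted p = 0.079), and with the compared groups alone it had an adjusted p of 0.031. With each 40D group as 1 sample, the SEP1 fall in SG NEC had a limma adjusted p of 0.16 and the SEP2 fall in CS one of 0.085. With 0.1 added before taking logs, SEP1 in SG NEC had an adjusted p of 0.11 and SEP2 in SG NEC, listed at 0, was called lower (adjusted p = 0.0038), and the compared groups alone gave SEP2 in SG NEC an adjusted p of 0.049.

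Against the anthers that callus was grown from, each member was lower in EC of both cultivars, where 79.6% of all loci in SG and 80.6% in CS were called. By direction, 7635 of the 21568 tested loci were lower in SG and 7115 in CS. SEP1 stood at 64.2% of its anther mean in SG EC and at 1.46% in CS EC, a log2 change of -0.63 in SG (limma adjusted p = 0.0035) and of -5.29 in CS (limma adjusted p = 1.7e-15). SEP3 stood at 2.54% in SG EC and 1.1% in CS EC, and its log2 change of -5.75 in SG was -4.71 without SG EC replicate 2 and -6.61 without SG EC replicate 1, the library of 16.8 FPKM. In NEC 2 members were lower in SG and 3 in CS, with 0 higher, where 77.5% and 78.6% of all loci were called. SEP3 was not called in NEC, at 73.9% of its anther mean in SG and 116% in CS, where the libraries did not overlap and the compared groups alone gave an adjusted p of 0.032, and SEP1 stood at 59.9% in SG and 27.6% in CS. SEP4 in SG NEC was not called, and without SG anther replicate 1 it fell by 0.39 (limma adjusted p = 0.036). With 0.1 added before taking logs, the falls of SEP1 in SG EC and of SEP4 in CS NEC had limma adjusted p of 0.056 and 0.058.

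Set against CS in the same tissue, SG had more SEP1 in all callus and less SEP4 in all tissues but EC. SEP1 differed by 0.08 in anthers (95% interval -0.30 to 0.46), by 0.63 in 40D (limma adjusted p = 0.0063), by 1.20 in NEC (limma adjusted p = 1.7e-05) and by 4.74 in EC (SE 0.18, limma adjusted p = 1.1e-13). In EC that was a 46.5-fold higher mean in SG. SEP4 in SG fell short of CS with a log2 difference of -1.67 in anthers, -1.21 in 40D and -1.24 in NEC (SE 0.17 each, limma adjusted p = 1.6e-07, 4.5e-06 and 4e-06), and the EC groups differed by 0.00, with an interval from -0.35 to 0.35. SEP2 in anthers had a log2 difference of -0.75 (limma adjusted p = 0.00054), or -0.49 without SG anther replicate 1, and with the anther groups alone in the fit it was not called (adjusted p = 0.073).

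SEP3 was not called between the cultivars in the pooled fit, in EC with a difference of 0.66 and an interval from -0.46 to 1.79. Without SG EC replicate 2 that difference was 1.70 (limma adjusted p = 4.6e-05), and with the 40D groups alone in the fit SEP3 was lower in SG 40D (-0.30, limma adjusted p = 3.1e-05). The members called were 0 higher and 2 lower in SG anthers, 1 higher and 1 lower in 40D, 1 and 1 in NEC, and 1 and 0 in EC. Of all loci 43.5% were called between anther groups, 56.9% between 40D groups, 53.4% for NEC and 51.4% for EC. With both 40D groups averaged to 1 sample each, the SEP1 difference in 40D had a limma adjusted p of 0.22. With 0.1 added before taking logs it had one of 0.079, and SEP2 was called lower in SG 40D (-1.06, adjusted p = 0.0077).

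The other floral MADS-box loci gave the setting for these values. Lists of 11 loci were taken from published locus assignments, which the files do not state: 3 of APETALA1 and FRUITFULL type, 3 of B class, 3 of AGAMOUS and SEEDSTICK type, and 2 of AGL6 type, the clade most closely related to SEPALLATA. In EC against NEC, 0 of the 11 were higher and 9 lower in SG, with a median of -2.83, and 1 was higher and 7 lower in CS, with a median of -2.31, against medians over all loci of 0.15 and 0.31. Of all loci 78.3% in SG and 79.4% in CS were called in either direction, so the number of listed loci called is near the background. By direction, 6937 of the 21568 tested loci were lower and 9948 higher in SG, and 6028 were lower and 11091 higher in CS. Called loci were thus more often higher than lower among all loci, and mostly lower among the listed ones. All 3 AGAMOUS and SEEDSTICK loci and both AGL6 loci were lower in EC of each cultivar. The B-class loci were lower in EC, except VIT_18s0001g01760 in CS, which had 46.5, 9.91 and 32.2 FPKM in EC against 9.68, 17.2 and 15.4 in NEC. Those groups overlap, although the test called the locus higher. Of the APETALA1 and FRUITFULL loci 1 was lower in SG and 0 were called in CS, at levels of under 2 FPKM in each library of either callus type. SEP1 in SG EC, at 55.3 FPKM, lay above each of these 11 loci in the same group, the highest of which, VIT_12s0142g00360, had 9.97 ± 0.668 FPKM.

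Of the 11 loci, 2 were called higher in SG EC than in CS EC, 3 lower and 6 not called, where 51.4% of all loci were called. VIT_12s0142g00360, on the AGAMOUS and SEEDSTICK list, lay higher in SG EC, with 10.7, 9.53 and 9.64 FPKM in SG EC against 3.32, 1.41 and 3.24 in CS EC, and no overlap. Unlike SEP1, it fell by 2.83 from NEC to EC in SG (limma adjusted p = 1.9e-11). The test of the EC against NEC difference, SG minus CS, called 2 of the 11 loci higher and 4 lower, where 47% of all loci were called. VIT_18s0041g01880 of the same list had 2.82, 0.523 and 1.36 FPKM in SG EC against 46.1, 43.4 and 49.9 in SG NEC, with no overlap. In EC against 40D callus 11 of the 11 were lower in SG and 10 in CS, with medians of -3.15 and -4.34. There 77.1% and 78.4% of all loci were called in either direction, and 6402 in SG and 5713 in CS of the 21568 tested loci were lower. In 40D callus against anthers 3 were higher and 7 lower in SG, and 4 were higher and 3 lower in CS, with medians of -0.78 and 0.17, where 76.7% and 78.6% of all loci were called.

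**Figure D4:**
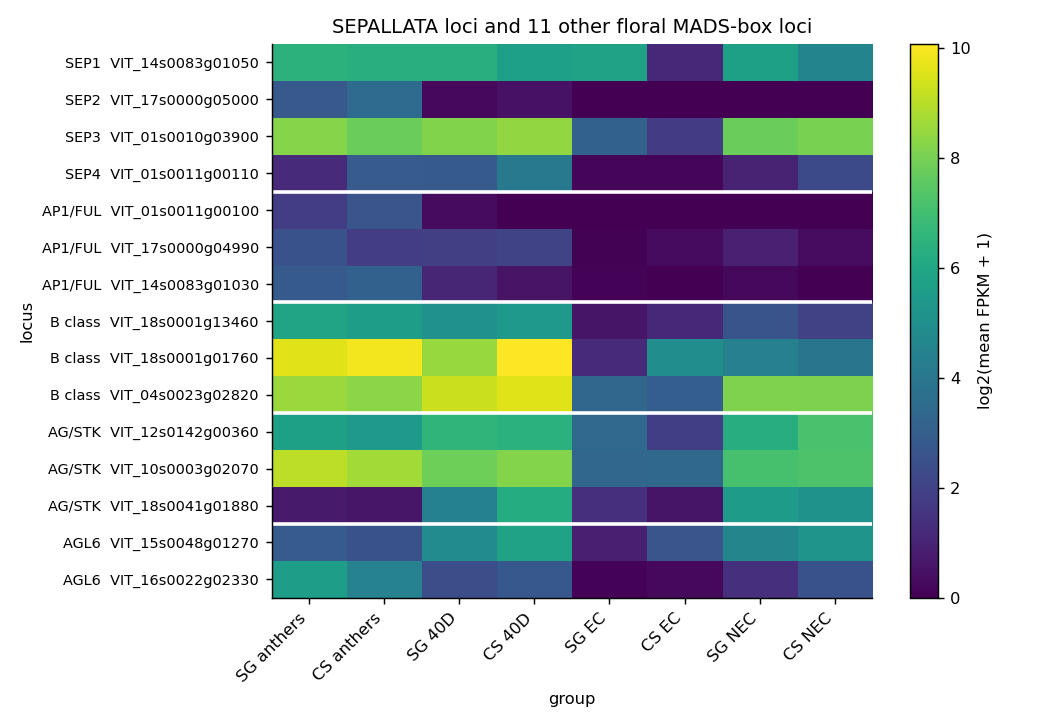
Colour gives log2(mean FPKM + 1) for the SEPALLATA loci (top block) and 11 other floral MADS-box loci (rows, by list) in the 8 groups (columns). SG EC is dark for most loci, while SEP1 there, at 55.3 FPKM, has nearly the colour of SG NEC at 51.7 FPKM.

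Loci next to the SEPALLATA loci differed in whether they moved in the same direction as these. Locus numbers run along a chromosome, and the nearest 2 loci on each side were taken, 16 in all, of which 14 passed the filter on low values. In EC against NEC 6 of the 14 were higher and 4 lower in SG, and 7 were higher and 3 lower in CS. Of all loci 78.3% in SG and 79.4% in CS were called, so the neighbours' share of calls, 10 of 14 in each cultivar, is near the background. Around SEP3 the neighbours went both ways. VIT_01s0010g03880, at place -2, fell by 1.8 in SG (SE 0.08, limma adjusted p = 6.9e-14) and fell by 2.40 in CS (SE 0.08, limma adjusted p = 1.3e-15). The other neighbours rose: VIT_01s0010g03890 rose by 0.67 in SG and rose by 2.1 in CS (SE 0.18 each, limma adjusted p = 0.0021 and 2e-09), VIT_01s0010g03910 rose by 1.11 and 2.01 (SE 0.25 each, limma adjusted p = 0.00055 and 5.6e-07), and VIT_01s0010g03920 rose by 0.31 and 0.68 (SE 0.06 each, limma adjusted p = 0.00019 and 8.2e-09). In the RefSeq table the gene before MADS4 is FLC, and the gene before MADS2 is VFUL-L, a FRUITFULL-type gene. The table gives no locus number that would tie them to neighbours in the files.

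The locus before SEP1, VIT_14s0083g01030, had 0.0443, 0.113 and 0.0888 FPKM in SG EC and 0.169, 0.141 and 0.185 in SG NEC. Set against CS, it was lower in SG anthers (-0.30, limma adjusted p = 0.019), higher in SG 40D callus (0.58, limma adjusted p = 4.8e-05) and not called in NEC or EC. VIT_14s0083g01070, at place 2 beside SEP1, had 8.83, 5.21 and 5.7 FPKM in SG EC against 2.02, 3.67 and 4 in CS EC, with no overlap. It was higher in SG than in CS already in anthers (0.86, limma adjusted p = 0.011), where SEP1 was not called. It was also higher in SG in EC (0.85, limma adjusted p = 0.01) and in 40D callus (1.39, limma adjusted p = 0.00014), and was not called in NEC. In EC against NEC it fell by 0.75 in SG and fell by 1.68 in CS (limma adjusted p = 0.013 and 6.8e-06). The SG minus CS difference was 0.94 (limma adjusted p = 0.042). The locus before SEP4, VIT_01s0011g00100, is listed at 0 in each EC and NEC library, and had 1.7, 3.73 and 2.17 FPKM in SG anthers and 5.54, 5.04 and 5.16 in CS anthers. It is on the APETALA1 and FRUITFULL list, as are the loci before SEP1 and SEP2. The locus after SEP2, VIT_17s0000g05010, was between 9.67 and 29.2 FPKM in all groups, while SEP2 itself ran down to 0.

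**Figure D5:**
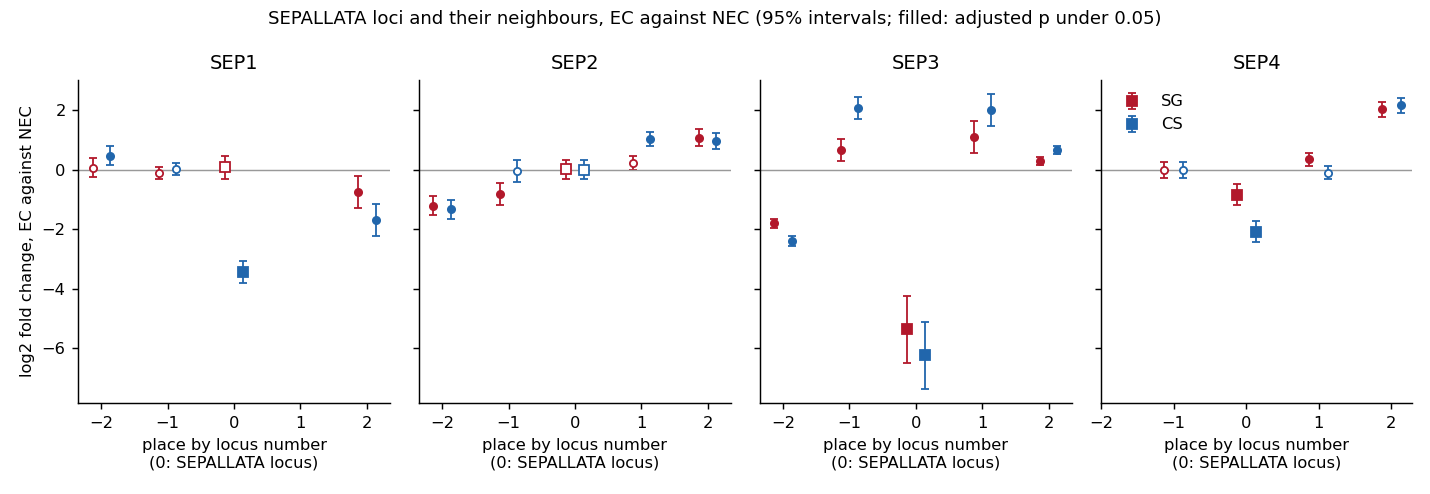
Log2 fold change of EC against NEC (vertical axis, 95% intervals) for each SEPALLATA locus (squares, place 0) and the 2 loci on each side by locus number (circles), in SG (red) and CS (blue). The loci at place 1 beside SEP1 and at place -2 beside SEP4 were too low to be tested. SEP3 lies below -5 in both cultivars while the neighbour at place -2 lies at -1.8 in SG and -2.40 in CS and those at places -1, 1 and 2 lie above 0.

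Likeness of pattern was measured as Pearson's r over the 8 group means of log2(FPKM + 1), among 18036 loci with a highest group mean of at least 5 FPKM. It is a description over points that share libraries, and it says nothing of shared function. Among the members r was highest for SEP3 with SEP4, at 0.75, and lowest for SEP2 with SEP4, at 0.23. The loci most like SEP3 were VIT_14s0171g00490 and VIT_06s0009g01600, both at 0.988, and VIT_04s0023g02820 at 0.987, which is on the B-class list. VIT_04s0023g02820 had 19.6, 0.546 and 6.93 FPKM in SG EC, against 270, 299 and 266 in SG NEC. Its SG EC libraries had the same order as for SEP3, with replicate 3 in the middle as at 60.8% of all tested loci. For SEP2 the most alike were VIT_04s0008g05370 at 1.000, VIT_04s0008g05400 at 0.999 and VIT_15s0021g01140 at 0.998, whose means were at least 4.84 FPKM in anthers and at most 1.25 in callus.

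SEP1 had less close company. Its most alike loci were VIT_07s0191g00190 at 0.931, VIT_18s0001g09140 at 0.918 and VIT_11s0016g03440 at 0.907. VIT_18s0001g09140 had 63.6 FPKM in SG EC and 16.8 in CS EC, a smaller gap than that of SEP1. The means of VIT_07s0191g00190 ran only from 8.91 to 22.1 FPKM, against 1.19 to 86.3 for SEP1, and r does not measure the size of a change. For SEP4 the most alike loci were VIT_09s0002g09120 at 0.961, VIT_05s0062g00210 at 0.952 and VIT_10s0003g01310 at 0.942. The means of VIT_05s0062g00210 ran only from 62.1 to 111 FPKM, against 0.114 to 15.9 for SEP4.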

How the data were processed

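RNA was measured in 24 libraries, 3 for each of 8 groups. The authors deposited FPKM values for 29971 loci, 1 column per library. Per the submitters' processing notes, CASAVA 1.8.2, TopHat2 2.0.9 and Cufflinks 2.1.1 were used; the genome build, the annotation and any further scaling were not given in the sources used here. Models for read counts were left aside.

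A locus was tested if at least 3 libraries reached 1 FPKM, which 21568 did, each of the 4 members among them. limma 3.58.1 (R 4.3.3) was fitted to log2(FPKM + 1) with 1 mean per group over all libraries, a spread that may follow the level and 16 residual degrees of freedom. Adjusted p is the Benjamini-Hochberg value over all tested loci of a comparison, of which there were 20, and 0.05 is the threshold. Levels are given as mean ± SD. Only the limma fit was tested on simulated data, for CS EC against NEC. The simulation capped the widest spreads and changed far fewer loci than the real comparison called. The other steps were not tested in this way.

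Named loci were the members, the 2 loci on each side by locus number, the 3 most alike loci per member, and, from the lists of other MADS-box loci, those next to a member or with the smallest adjusted p in EC against NEC of either cultivar; VIT_18s0001g01760 was chosen after its values were seen. Members, lists and alternatives were chosen with earlier results of these data known. Of the locus identifiers, 0 occur in the RefSeq gene table. The alternatives are described with their effect at the end.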

Additional observations from a re-analysis of the deposited data

Results flagged for a closer look

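The change of SEP1 and SEP4 to embryogenic callus differed between the cultivars by the test of the difference itself. For SEP1 the SG minus CS difference was 3.54 in EC against NEC (limma adjusted p = 4.1e-09) and 4.11 in EC against 40D callus (limma adjusted p = 3.2e-10). All 3 SG EC libraries, at 49.4 to 61.1 FPKM, lay above all 3 CS EC libraries, at 0.4 to 1.71 FPKM. For SEP4 the differences were 1.24 (limma adjusted p = 0.00028) and 1.22 (limma adjusted p = 0.00027). With 0.1 added before taking logs, the SEP4 difference in EC against 40D was 1.15 and lost its call (limma adjusted p = 0.068). SEP4 was near 0 in EC of both cultivars, with means of 0.123 FPKM in SG and 0.114 in CS, and its difference comes with the lower SG levels of 0.99 FPKM in NEC and 6.28 in 40D, against 3.79 and 15.9 in CS. The comparisons with NEC and with 40D share the EC libraries.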

How the results depend on the processing

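In EC against NEC and its SG minus CS difference, the called members kept direction and call under all alternatives: an added constant of 0.1, all loci tested, only loci averaging 5 FPKM tested (which removes SEP2 and SEP4), the replicate number as a block, compared groups alone, median-of-ratios scaling, equal sums, robust moderation, 40D groups as 1 sample, SG EC replicate 1 and SG NEC replicate 2 left out, each library left out, and anther and EC replicates 3 left out, the last chosen after seeing the data. One uncalled result was gained: the SEP3 difference ran from 0.02 to 1.91 with 1 library left out. SEP1 in SG, uncalled throughout, ran from -0.11 to 0.23 over the other alternatives.

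Replicate numbers did not pair the libraries: correlations of same-numbered deviations ran from -0.26 to 0.17, and 2 of 48 were over 0.1. With the replicate block, 0 of the 80 member results changed their call; SEP1 in CS EC against NEC fell by 3.44. Median-of-ratios scaling shifted the median of all loci by up to 0.31, in CS EC against NEC, and changed 0 member calls. With each 40D group as 1 sample, the loci called were 5842 in place of 12278 for SG against CS in 40D, 5505 in place of 10235 for SG NEC against 40D, and 5640, 6256 and 4231 in place of 10683, 11196 and 9166 for the SG minus CS differences of 40D against anthers, EC against 40D and NEC against 40D. Without replicates 3 of anthers and EC, SG against CS anthers gave 6202 loci in place of 9382. How many fragments lie behind the low SEP2 and SEP4 values in EC is unknown.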
